A study of Homo sapiens
Mus musculus with 16 samples.

Results

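Macrophage polarisation genes of the host, 10 of the 48795 mouse gene IDs counted, are described here in the mouse RNA of human breast tumour xenografts. The rule that chose them lists names and uses no values, but the members were chosen with earlier results of these data known. The M1-like genes were Nos2, Tnf, Il1b, Cd80, Cd86, Ccr7 and Cd38 (7 genes), and the M2-like genes were Arg1, Chil3 and Retnla (3 genes). All 10 passed the filter on low counts, and 15074 mouse genes were tested in all.

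The tumours grew from the human breast cancer line MDA-MB-231 (triple-negative, that is, without hormone receptors or HER2) in balb/c nude mice, a strain that lacks a thymus and therefore most T cells. Each mouse received 2 M cells in 50 µl of PBS and Matrigel in the mammary fat pad, and its tumour was taken 50 days later. The 4 groups of 4 mice gave 16 tumours with 1 mRNA library each, and every dose was injected intraperitoneally. The vehicle group received the vehicle only. The nab-paclitaxel group received albumin-bound paclitaxel, a taxane that stabilises microtubules, at 30 mg/kg on day 15, day 22 and day 29. The phenelzine group received phenelzine, a monoamine oxidase inhibitor, daily at 40 mg/kg starting on day 15, and the combination group received both drugs at these doses and times.

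Macrophages change their products with the signals around them. Interferon-gamma and microbial products lead to the state called M1-like or classically activated, with inflammatory cytokines and nitric oxide. Interleukin-4 and interleukin-13 lead to the M2-like or alternatively activated state, of which Arg1, Chil3 and Retnla are the customary mouse markers. Nos2 and Arg1 compete for the same substrate, arginine: the first turns it into nitric oxide and the second into ornithine and urea. In tumours the states are mixed, and none of these genes is made by macrophages alone. Neutrophils can also make Il1b and Arg1, and dendritic cells carry Cd80, Cd86 and Ccr7.

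Mouse counts totalled 3.46 to 27.4 M per library and human counts 11.1 to 34.5 M. The mouse share of all counts ran from 9.25% to 71.2%, with means of 21.1% ± 11.5 for vehicle, 36.5% ± 18.1 for nab-paclitaxel, 12.6% ± 3.54 for phenelzine and 48.3% ± 22.1 for the combination (SD, n = 4 each). The 4 libraries that stood apart from the rest on the first principal component of the human genes were nab-paclitaxel 1 and 4 and combination 1 and 3. Levels below are CPM, mouse counts scaled to the same effective library size with TMM factors, so they describe the composition of the host RNA. In such bulk tissue, fewer cells of a type and less RNA per cell cannot be told apart. Other macrophage markers could not be looked up, because the files do not pair gene IDs with names, so the number of macrophages in each tumour was not assessed.

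Arg1 and Nos2, the arginine enzymes, had their lowest group means in the tumours given nab-paclitaxel alone, 3.84 ± 2.39 and 12.8 ± 6.70 CPM against 106 ± 128 and 124 ± 122 CPM with vehicle (SD, n = 4 each). Chil3 and Retnla had their highest group means in the combination, 57.5 ± 99.0 and 40.9 ± 50.4 CPM, where 1 tumour held most of the RNA of each. The group means of the cytokines and the co-stimulatory ligands differed by smaller factors. Groups made up 40.4% and 33.3% of the variance of log2 CPM for Cd80 and Cd86, and 8.05% and 16.1% for Tnf and Il1b. The same share was 52.4% for Arg1, 32.2% for Nos2, 31.7% for Chil3 and 39.6% for Retnla, against a median of 25.9% over all genes tested. Relative to their spread, Cd80 and Cd86 thus did not differ less between groups than Nos2 and Chil3. None of the differences between groups passed the test used once its p-values were adjusted for all genes, and 0 of the 10 genes passed it in any comparison. The test was edgeR's quasi-likelihood test with p-values adjusted over all 15074 genes, at a threshold of 0.05. In nab-paclitaxel against vehicle, which asks what the taxane did alone, 0 of 10 passed (edgeR), as did 0% of all genes tested. At an unadjusted p under 0.05 there were 3 of 10, Nos2, Ccr7 and Arg1, all lower with the drug, against 11.9% of all genes. DESeq2 called 2, Nos2 and Arg1, and voom 0. The DESeq2 counts here and below are given without the share of all genes it called. They therefore do not show whether the 10 genes stood out by that test. In phenelzine against vehicle 0 passed (edgeR), with 0% of all genes, and 1, Ccr7, had an unadjusted p under 0.05, against 6.11%. DESeq2 and voom also called 0 there. In the combination against vehicle 0 passed (edgeR), against 0.0332% of all genes. Il1b, which was lower, and Chil3, which was higher, made 2 of 10 at an unadjusted p under 0.05, against 13.7%, and DESeq2 called 1, Chil3, and voom 0.

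What phenelzine added to the taxane was read from the combination against nab-paclitaxel. Again 0 of 10 passed (edgeR), against 0.0199% of all genes. Nos2, Cd80, Arg1 and Chil3, all higher in the combination, made 4 of 10 at an unadjusted p under 0.05, against 5.53%, while DESeq2 called 3, Nos2, Arg1 and Chil3, and voom 0. What the taxane added to phenelzine was read from the combination against phenelzine, where 0 passed (edgeR), against 0.00663%. Cd80, Chil3 and Retnla, all higher, made 3 of 10 at an unadjusted p under 0.05, against 18.1%, and DESeq2 called 1, Chil3, and voom 0. The interaction asks whether the effects of the single drugs, added as log2 changes, give that of the combination. There 0 passed (edgeR), with 0% of all genes, and 5 of 10 had an unadjusted p under 0.05, against 8.15%, while DESeq2 called 1, Arg1, and voom 0. All 10 interaction estimates were above 0, against 55.3% of all genes tested. They ran from 0.04 for Il1b to 5.25 for Arg1 on the log2 scale, with a median of 1.98 against 0.06 over all genes tested. Those of Il1b and Cd86 were below 0 without vehicle 1 (-0.50 and -0.30). The genes were measured in the same tumours and some followed each other, so they are not 10 separate observations. These comparisons share their groups, so the counts are not independent of each other.

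Averaging each drug over both states of the other set 8 tumours against 8. For nab-paclitaxel 0 of 10 passed (edgeR), against 0.796% of all genes, and 3 had an unadjusted p under 0.05, against 20.7%. These were Cd86 and Retnla, higher with the taxane, and Arg1, lower, with 1 call, Arg1, by DESeq2 and 0 by voom. For phenelzine 0 passed (edgeR), against 0.0265%, and Chil3 alone had an unadjusted p under 0.05, against 3.81%, with 0 calls by DESeq2 and voom.

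**Figure D1:**
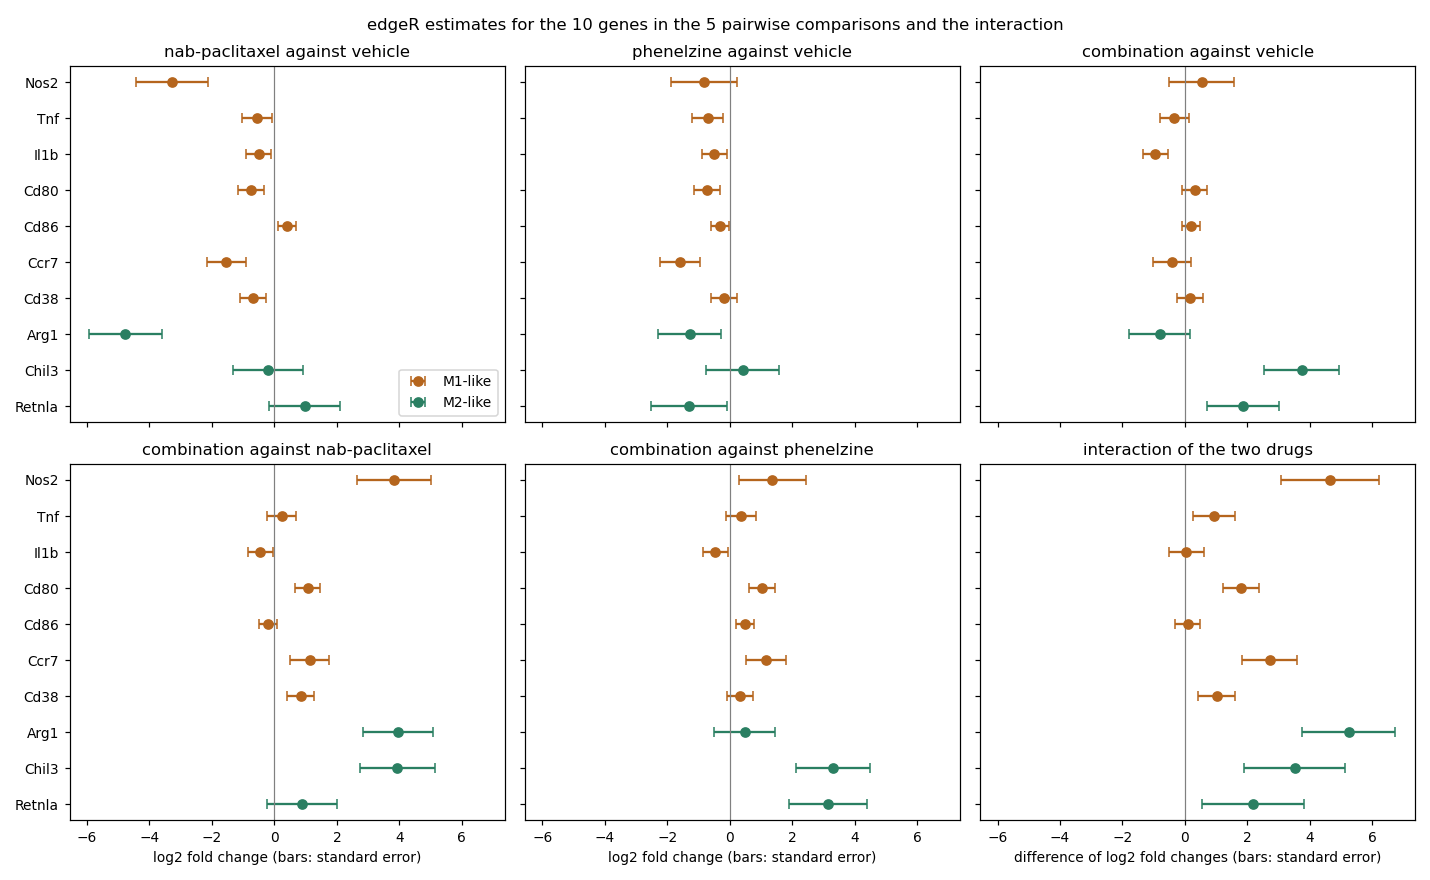
Estimated log2 fold change of each gene (x axis) with its standard error (bars) from edgeR in the 5 pairwise comparisons and, in the last panel, the interaction as a difference of log2 fold changes; colours mark the M1-like and M2-like genes. No estimate passed the threshold, and the estimates of Nos2, Arg1, Chil3 and Retnla have the widest bars in every panel.

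The spread between tumours of 1 group was wide for 4 of the genes. The SD of log2 CPM within groups was 1.80 for Nos2, 1.71 for Arg1, 1.65 for Chil3 and 2.01 for Retnla, against a median of 0.40 over all genes tested. Of all tested genes, 97.8%, 97.3%, 97.0% and 98.6% varied less than these, respectively. Among the 1000 genes nearest to each in mean level the shares were 99.7%, 98.6%, 94.9% and 98.1%. The other 6 varied by 0.44 (Cd86) to 0.91 (Ccr7), which placed them above 54.3% to 84.3% of all genes. Standard errors in the comparisons were accordingly wide for Nos2 and the M2-like genes and narrow for the co-stimulatory ligands, the cytokines and Cd38.

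**Figure D2:**
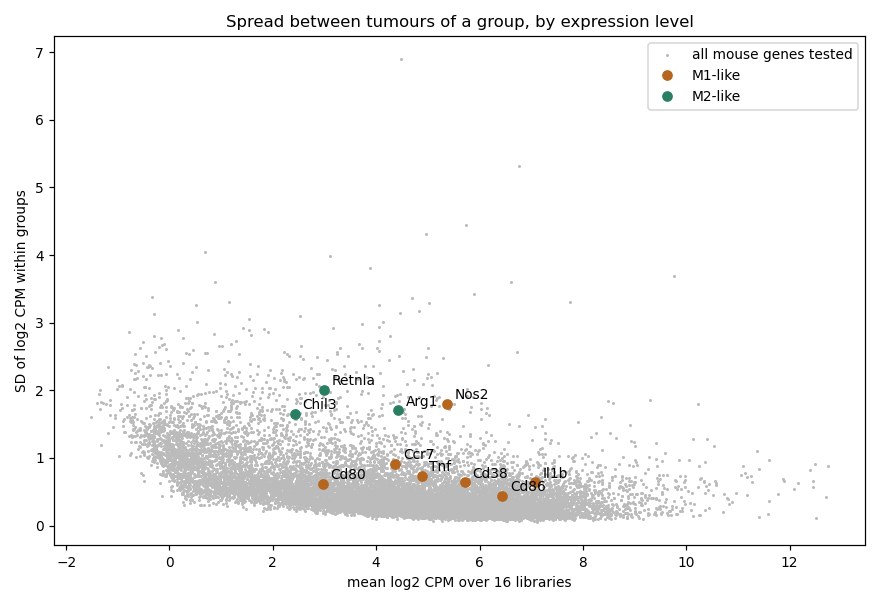
SD of log2 CPM between tumours within groups (y axis) against mean log2 CPM over the 16 libraries (x axis), for all 15074 mouse genes tested (grey) and the 10 genes (coloured). Nos2, Arg1, Chil3 and Retnla lie between 1.65 and 2.01, above most genes of their level.

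Nos2 (ENSMUSG00000020826) encodes inducible nitric oxide synthase, the defining enzyme of the M1-like state. In the vehicle tumours it stood at 286, 15.8, 148 and 47.7 CPM (tumours 1 to 4, in this order here and below). With nab-paclitaxel it stood at 8.10, 16.6, 20.2 and 6.26 CPM, and with phenelzine at 59.2, 28.6, 161 and 33.1 CPM. With the combination it stood at 547, 132, 5.86 and 34.3 CPM, so that this group held both the highest and the lowest of the 16 tumours, a 93.4-fold range. All 4 nab-paclitaxel tumours were low, and they overlapped the vehicle group only through vehicle 2. The log2 fold change against vehicle was -3.29 (SE 1.15, edgeR adjusted p = 0.307). The combination against nab-paclitaxel gave 3.83 (SE 1.18, edgeR adjusted p = 0.794), and 2.17 without combination 1. The 2 libraries at the ends of the range, combination 1 and 3, both belong to those that stood apart in the human genes, with mouse shares of 71.2% and 55.9%. Without the 4 libraries that stood apart the estimates were -2.75 and 2.20. The interaction was 4.65 (SE 1.56, edgeR adjusted p = 0.597), and 2.97 without combination 1.

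Tnf (ENSMUSG00000024401) and Il1b (ENSMUSG00000027398) encode tumour necrosis factor and interleukin-1 beta, the main early inflammatory cytokines of activated macrophages. Tnf stood at 69.3, 21.95, 62.8 and 17.0 CPM with vehicle and at 46.0, 22.0, 19.5 and 27.1 CPM with nab-paclitaxel. With phenelzine it stood at 30.9, 21.0, 35.6 and 17.4 CPM and with the combination at 60.0, 24.7, 17.0 and 33.0 CPM. All 4 groups overlapped, and the log2 fold changes in the 5 pairwise comparisons lay between -0.71 and 0.37, with edgeR adjusted p-values of 0.658 to 0.966. Both ends rested on single libraries, since the lowest, phenelzine against vehicle, was -0.37 without vehicle 1 and the highest, the combination against phenelzine, was -0.08 without combination 1. Vehicle 1, vehicle 3 and combination 1, the tumours with most Tnf, were also among the 4 with most Nos2.

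Il1b stood at 386, 58.4, 217 and 143 CPM with vehicle and at 127, 132, 138 and 173 CPM with nab-paclitaxel. It stood at 170.0, 95.3, 181 and 125 CPM with phenelzine and at 115, 71.9, 113 and 117 CPM with the combination. The vehicle tumours held both the highest and the lowest value of the 16, while the nab-paclitaxel tumours lay close together. Every combination tumour was below every nab-paclitaxel tumour, but the log2 fold change was only -0.45 (SE 0.399, edgeR adjusted p = 0.886). Against vehicle the combination gave -0.95 (SE 0.402, edgeR adjusted p = 0.331), -0.41 without vehicle 1, -0.60 with the mouse share as a covariate and 0.59 when scaled by the counts of both species, where the median of all genes was 1.15. Il1b was 1 of 2 genes whose groups did not overlap in the combination against nab-paclitaxel, the other being Arg1, against 3.87% of all genes tested (2.21% higher, as Arg1, and 1.67% lower, as Il1b). In the other 4 pairwise comparisons the groups overlapped for all 10 genes, against 5.61% of all genes without overlap for nab-paclitaxel and 2.02% for phenelzine against vehicle. The same shares were 5.27% for the combination against vehicle and 11.2% for the combination against phenelzine. Tumours with and without nab-paclitaxel, and with and without phenelzine, also overlapped for all 10, against 0.325% and 0.0265% of all genes without overlap.

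**Figure D3:**
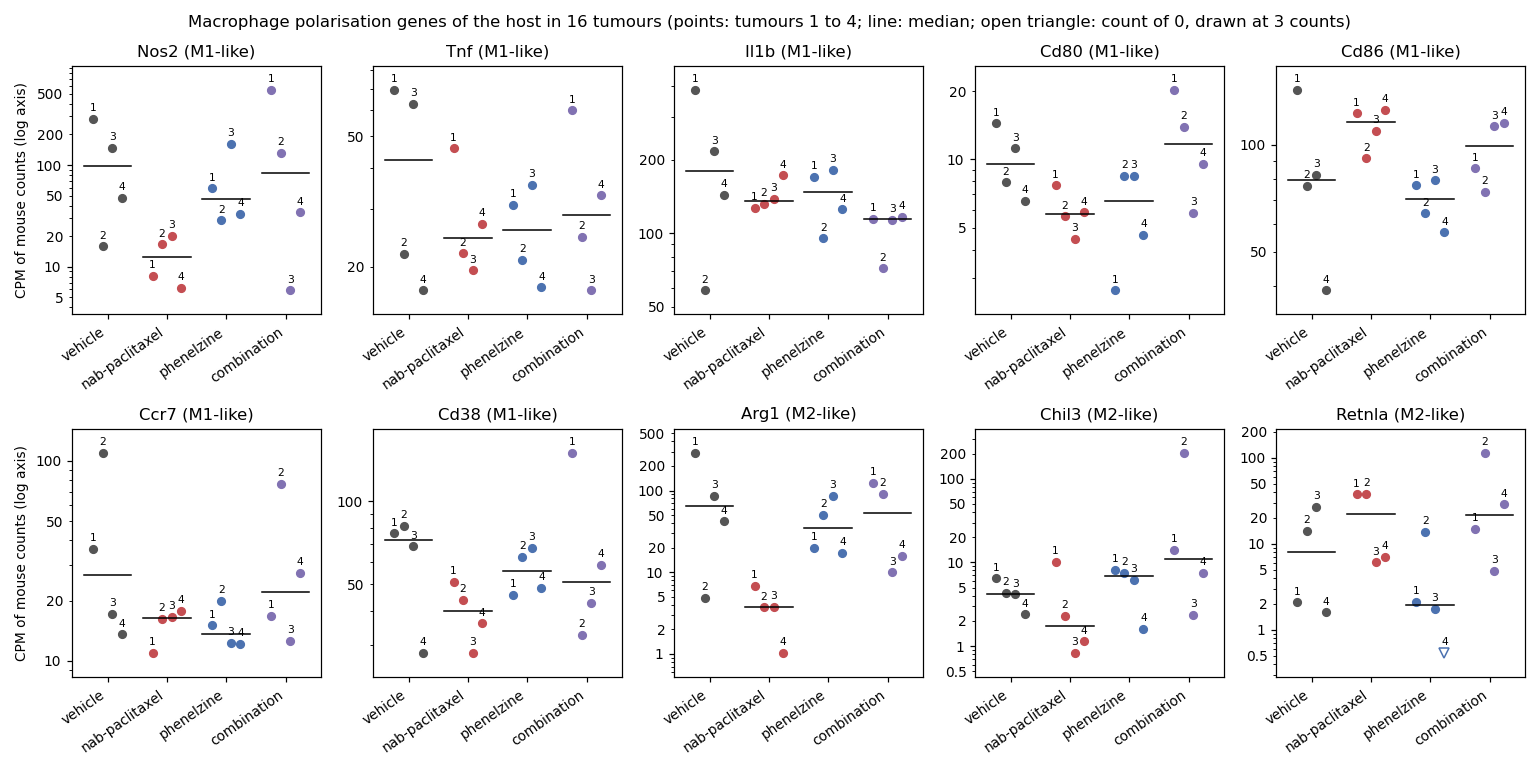
CPM of each gene on log axes (y) in the 16 tumours by treatment group (x); points are single tumours numbered within their group, lines are group medians, and the open triangle is a count of 0 drawn at the level of 3 counts. Arg1 is at 1.02 to 6.86 CPM in the nab-paclitaxel tumours, and Chil3 and Retnla are highest in combination 2.

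Cd80 (ENSMUSG00000075122) and Cd86 (ENSMUSG00000022901) encode the B7 ligands with which antigen-presenting cells co-stimulate T cells. Cd80 stood at 14.4, 7.91, 11.2 and 6.58 CPM with vehicle and at 7.67, 5.60, 4.47 and 5.83 CPM with nab-paclitaxel. It stood at 2.64, 8.43, 8.47 and 4.65 CPM with phenelzine, where phenelzine 1 held 10 counts, and at 20.2, 13.9, 5.81 and 9.57 CPM with the combination. The combination tumours other than combination 3 were above every nab-paclitaxel and every phenelzine tumour. The log2 fold change of the combination was 1.07 against nab-paclitaxel (SE 0.405, edgeR adjusted p = 0.851) and 1.03 against phenelzine (SE 0.415, edgeR adjusted p = 0.234). Without combination 1 these were 0.71 and 0.68, and a covariate for the mouse share brought the second to 0.57. The interaction was 1.79 (SE 0.582, edgeR adjusted p = 0.597).

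Cd86 varied least between tumours of a group. It stood at 143, 76.8, 82.2 and 38.9 CPM with vehicle, at 123, 91.7, 109 and 125 CPM with nab-paclitaxel, at 76.9, 64.1, 79.5 and 56.7 CPM with phenelzine and at 85.8, 73.8, 113 and 115 CPM with the combination. Vehicle 1 was the highest of the 16 and vehicle 4 the lowest. The 8 tumours with nab-paclitaxel averaged 104.6 CPM and the 8 without 77.2 CPM, which edgeR estimated as 0.44 on the log2 scale (SE 0.202, adjusted p = 0.232). The mouse share of counts was also higher on average in the taxane groups, and its part in this difference was not tested beyond a fit that held it as a covariate, which gave 0.51 (edgeR adjusted p = 0.783). No relation of Cd80 and Cd86 over the tumours was resolved (Pearson r = 0.140, permutation p = 0.605, Spearman rho = 0.115, n = 16, r = 0.139 without the 2 tumours farthest from the median of Cd80).

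Ccr7 (ENSMUSG00000037944) encodes the chemokine receptor that guides dendritic cells and lymphocytes to lymph nodes, and it is used as an M1-like marker. It stood at 36.3, 110.1, 17.1 and 13.6 CPM with vehicle, at 10.9, 16.2, 16.6 and 17.8 CPM with nab-paclitaxel and at 15.1, 19.9, 12.3 and 12.2 CPM with phenelzine. With the combination it stood at 16.8, 76.9, 12.6 and 27.6 CPM. Vehicle 2 and combination 2 were far above the other 14 tumours, which lay between 10.9 and 36.3 CPM. Against vehicle the log2 fold change was -1.54 with nab-paclitaxel (SE 0.627, edgeR adjusted p = 0.3603) and -1.58 with phenelzine (SE 0.637, edgeR adjusted p = 0.787). Vehicle 2 carried most of both, which were -0.52 and -0.57 without it. The interaction was 2.71 (SE 0.889, edgeR adjusted p = 0.597), and 1.68 without vehicle 2.

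Cd38 (ENSMUSG00000029084) encodes an ectoenzyme that consumes NAD and is induced in M1-like macrophages. It stood at 76.4, 81.4, 68.6 and 28.1 CPM with vehicle and at 51.1, 43.9, 28.1 and 36.0 CPM with nab-paclitaxel. It stood at 45.7, 62.8, 67.8 and 48.5 CPM with phenelzine and at 150.2, 32.7, 42.8 and 58.8 CPM with the combination. Combination 1 was the highest of the 16, as it was for Nos2 and Cd80. The log2 fold changes in the 5 pairwise comparisons ran from -0.68 (SE 0.420, nab-paclitaxel against vehicle) to 0.84 (SE 0.419, combination against nab-paclitaxel), with edgeR adjusted p-values of 0.537 and 0.851. The second was 0.16 without combination 1, and the covariate for the mouse share brought it to 0.54.

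Arg1 (ENSMUSG00000019987) encodes arginase 1, the enzyme that most often defines the M2-like state in mice. It stood at 292, 4.85, 86.1 and 41.9 CPM with vehicle and at 6.86, 3.70, 3.76 and 1.02 CPM with nab-paclitaxel. With phenelzine it stood at 19.8, 50.4, 86.5 and 17.4 CPM and with the combination at 124, 91.2, 9.97 and 15.7 CPM. The 4 nab-paclitaxel tumours and vehicle 2 were the 5 lowest of the 16. Every nab-paclitaxel tumour was below every combination tumour, as in 2.21% of all genes tested, and only vehicle 2 lay within the nab-paclitaxel range. Every nab-paclitaxel tumour was also below every phenelzine tumour, and this held for Nos2 too (at most 20.2 against at least 28.6 CPM). For Cd86 every nab-paclitaxel tumour was above every phenelzine tumour (at least 91.7 against at most 79.5 CPM). That pair of groups was not among the comparisons and its share of all genes was not computed. These separations are therefore not read as a trait of the genes. Group means were 106 ± 128, 3.84 ± 2.39, 43.5 ± 32.4 and 60.3 ± 56.5 CPM in the same order of groups (SD, n = 4 each).

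The log2 fold change of Arg1 with nab-paclitaxel against vehicle was -4.77 (SE 1.16, edgeR unadjusted p = 0.000956, adjusted p = 0.222), the largest of the 10 genes in that comparison. It stayed between -5.26 and -3.50 when 1 library at a time was left out and was -4.82 without the 4 that stood apart. DESeq2 called it (adjusted p = 0.000257 by DESeq2) and also called Nos2 (adjusted p = 0.0480 by DESeq2), whereas voom called neither. Adding phenelzine to the taxane gave 3.96 (SE 1.12, edgeR unadjusted p = 0.00304, adjusted p = 0.724) and 3.32 to 4.46 with 1 library left out. Against phenelzine alone the combination stood at 0.48 (SE 0.985, edgeR adjusted p = 0.817), a value whose sign turned without combination 1 (-0.16) and with the mouse share as a covariate (-0.27). The average for nab-paclitaxel over both phenelzine states was -2.14 (SE 0.732, edgeR adjusted p = 0.126), and -2.45 to -1.51 with 1 library left out. Scaled by the counts of both species it was -0.25, where the median of all genes was 1.36. The interaction was 5.25 (SE 1.49, edgeR unadjusted p = 0.00313, adjusted p = 0.597), and 3.97 to 5.78 with 1 library left out. No combination tumour was thus as low in Arg1 as those given nab-paclitaxel alone, but the difference did not pass once p-values were adjusted over all genes.

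Chil3 (ENSMUSG00000040809) encodes the secreted chitinase-like protein Ym1, a product of alternatively activated mouse macrophages. It stood at 6.47, 4.34, 4.13 and 2.39 CPM with vehicle, at 10.2, 2.30, 0.823 and 1.14 CPM with nab-paclitaxel and at 8.20, 7.48, 6.14 and 1.61 CPM with phenelzine. With the combination it stood at 14.2, 206, 2.37 and 7.56 CPM. Combination 2 was the only tumour above 14.2 CPM, and nab-paclitaxel 3 held as few as 7 counts. The log2 fold change of the combination was 3.73 against vehicle (SE 1.20, edgeR adjusted p = 0.243), 3.94 against nab-paclitaxel (SE 1.19, edgeR adjusted p = 0.786) and 3.31 against phenelzine (SE 1.19, edgeR adjusted p = 0.200). These were 0.92, 1.12 and 0.47 without combination 2, and a covariate for the mouse share brought the last to 1.93. The interaction was likewise 3.51 with it and 0.67 without it, and the average of phenelzine over both states was 2.18 with it and 0.78 without it.

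Retnla (ENSMUSG00000061100) encodes resistin-like molecule alpha, also called FIZZ1, a secreted product of cells stimulated with interleukin-4. It stood at 2.09, 14.1, 26.9 and 1.60 CPM with vehicle and at 37.7, 37.9, 6.11 and 7.10 CPM with nab-paclitaxel. With phenelzine it stood at 2.11, 13.7, 1.75 and 0 CPM, and with the combination at 14.9, 115, 4.84 and 28.7 CPM. The count of 0 in phenelzine 4 would allow up to 0.537 CPM (3 counts) if counts were plain tallies of reads. Combination 2 was again the highest, and the tumours of all 4 groups overlapped. The combination against phenelzine had a log2 value of 3.15 (SE 1.24, adjusted p = 0.227 by edgeR), and it was 1.81 without combination 2 and 5.09 without phenelzine 2. The average for nab-paclitaxel over both phenelzine states was 2.06 (SE 0.837, edgeR adjusted p = 0.180), and 1.40 to 3.04 with 1 library left out. Of the 10 genes, Retnla had the highest rank correlation with the mouse share of counts (Spearman rho = 0.629, permutation p = 0.0111, adjusted over the 10 genes 0.111). The Pearson value was 0.458 (permutation p = 0.0755, adjusted 0.483, n = 16), or 0.419 without the 2 tumours farthest from the median share and 0.0510 after each group's mean had been subtracted. By that last measure Cd38 (0.452) and Il1b (-0.318) were the highest in size, and 0 of the 10 genes passed for both coefficients. Low counts in the mouse matrix are not plain tallies of single reads, since the value 1 occurs 9478 times and the value 3 occurs 17175 times. The limit of 3 counts for a count of 0 is therefore only nominal. Chil3 and Retnla have close relatives in the mouse genome, and whether reads were split between them was not assessed.

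**Figure D4:**
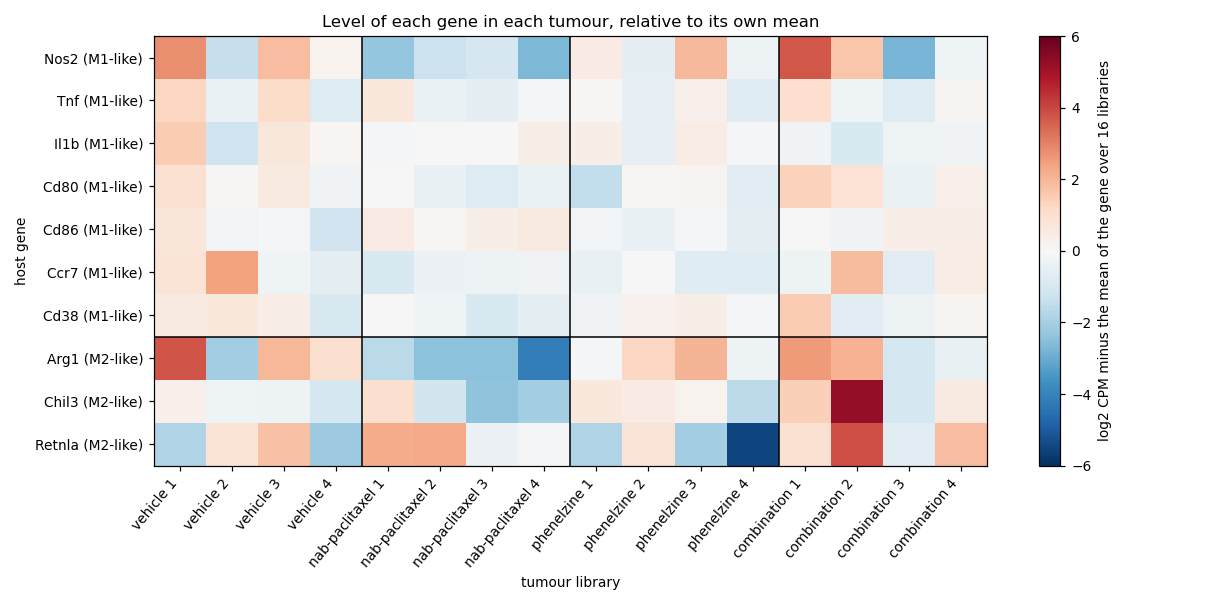
Log2 CPM of each gene (rows) in each tumour (columns, grouped by treatment) minus the mean of that gene over the 16 libraries. Vehicle 1 and combination 1 are high for both Nos2 and Arg1, combination 2 is highest for Chil3 and Retnla, and the nab-paclitaxel tumours are low for Nos2 and Arg1.

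Nos2 and Arg1, the defining genes of opposite classes, were high in the same tumours. Over the 16 tumours their log2 CPM had a Pearson r of 0.883 and a Spearman rho of 0.882 (permutation p = 4e-05 and 5e-05, adjusted over the 45 pairs of the 10 genes 0.0018 and 0.00225). This was the only pair of 45 that passed for both coefficients. The r was 0.852 without the 2 tumours farthest from the median of Nos2 and 0.832 after each group's mean had been subtracted. It was between 0.849 and 0.918 with 1 group left out and between 0.862 and 0.909 with 1 tumour left out. The values share their library and its scaling, and scaled by the counts of both species r was 0.874. Ranked by rho with Arg1, Nos2 came in place 21 among 15073 other tested genes, whose highest rho was 0.956. Ranked by rho with Nos2, Arg1 came in place 37, and the highest rho there was 0.974. The genes ahead of them cannot be named from the files.

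**Figure D5:**
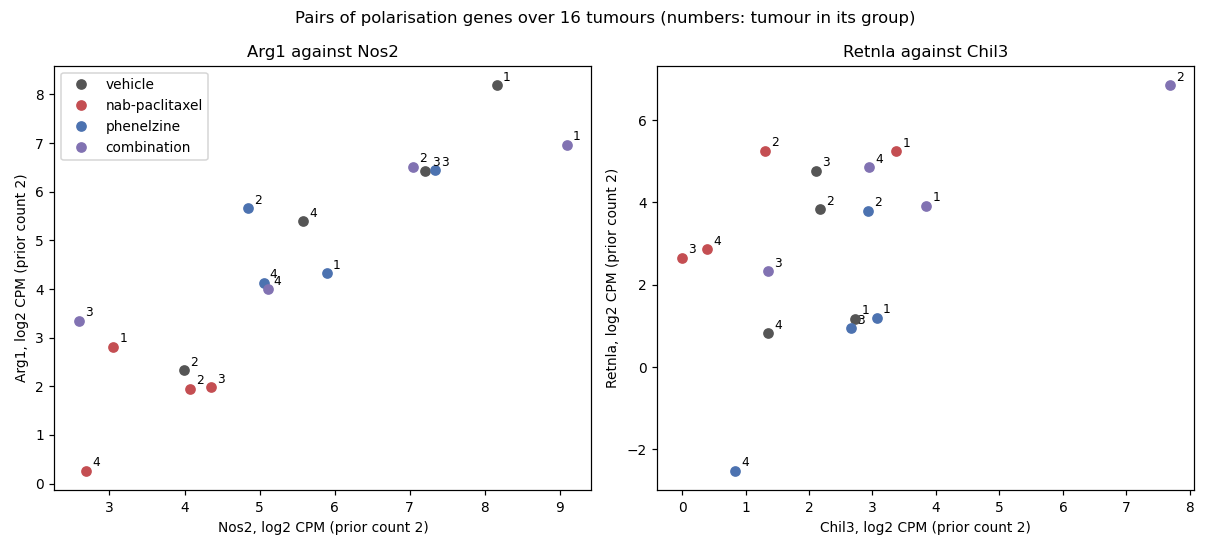
Log2 CPM of Arg1 against Nos2 (left) and of Retnla against Chil3 (right) in the 16 tumours, coloured by treatment and numbered within each group. Arg1 and Nos2 broadly rise together, up to vehicle 1 and combination 1. At the low end, combination 3 has Nos2 at 2.59 and Arg1 at 3.34, and nab-paclitaxel 4 has 2.68 and 0.26. Chil3 and Retnla are scattered apart from combination 2.

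The M2-like genes followed each other less closely, as single values, than Arg1 followed Nos2. Arg1 and Chil3 had r = 0.551 (permutation p = 0.0222, adjusted 0.118, rho = 0.603, r = 0.539 without the 2 farthest tumours, 0.509 within groups). Chil3 and Retnla had r = 0.524 (permutation p = 0.0414, adjusted 0.143, rho = 0.412, r = 0.359 without the 2 farthest, 0.681 after each group's mean had been subtracted, 0.317 to 0.596 with 1 tumour left out). Arg1 and Retnla had r = -0.0783 (permutation p = 0.776, adjusted 0.902, rho = -0.153, r = 0.00417 without the 2 farthest, 0.191 within groups). Whether these coefficients differ from that of Nos2 and Arg1 was not tested. Among the M1-like genes, Tnf and Cd38 had the highest r, 0.652 (permutation p = 0.00549, adjusted 0.0876, rho = 0.632, r = 0.641 without the 2 farthest, 0.685 within groups). For Il1b and Nos2 the relation was not resolved (r = 0.330, permutation p = 0.214, adjusted 0.391, rho = 0.338, r = 0.197 without the 2 farthest, 0.470 within groups).

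Single tumours thus differed in which of the genes they held most of. Vehicle 1 had the highest Tnf, Il1b, Cd86 and Arg1 of the 16 (4 genes), and combination 1 the highest Nos2, Cd80 and Cd38 (3 genes). Combination 2 had the highest Chil3 and Retnla (2 genes) and vehicle 2 the highest Ccr7 (1 gene). Combination 2 had also the 2nd highest Ccr7, at 76.9 CPM, and the lowest Il1b of its group.

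The direction of small changes depended on the denominator. Scaled by the counts of both species, where a larger host share lifts every mouse gene, the median log2 change of all genes against vehicle was 0.71 for nab-paclitaxel, -0.81 for phenelzine and 1.15 for the combination. It was 0.43 for the combination against nab-paclitaxel and 2.01 against phenelzine. With nab-paclitaxel against vehicle 2 of the 10 genes lay above 0 on the mouse scale and 7 on the scale of both species, of which 3 lay above the median of all genes. With the combination against vehicle the numbers were 6, 10 and 7, and against nab-paclitaxel 8, 9 and 8. Arg1, Nos2 and Ccr7 stayed below 0 with nab-paclitaxel on both scales, and relative to the median of all genes they stood at -4.00, -3.02 and -2.09 on the scale of both species. Tnf, Il1b, Cd80, Cd38 and Chil3 were below 0 on the mouse scale and above 0 on the scale of both species in that comparison.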

How the data were processed

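RNA of 16 xenograft tumours was measured by paired-end mRNA sequencing. The values used are the whole-number counts per gene that the authors deposited, 1 matrix of mouse and 1 of human genes. The submitters' processing notes list the builds hg38 and mm10 and the tools edgeR, StringTie, Picard, HISAT2 2.04 and Trimmomatic 0.36, with no order. The strand setting, the annotation and the way reads were split by species are not stated in them, and whether human reads were counted as mouse was not tested.

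The 10 genes were identified by Ensembl ID. The files do not pair IDs with names and 0 IDs were matched to the reference table, so the other gene lists and cell type markers could not be used. The members and lists were chosen with earlier results of these data known. All 10 genes are described, with values of every library where a gene holds over 1 CPM in each library; Chil3 and Retnla fell below this and were added after their values were seen. Fold changes are given for genes at an unadjusted p under 0.05 and, beyond these, chosen after their values were seen.

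Under R 4.3.3, edgeR 4.0.16 tested the mouse counts of all 16 libraries in 1 model with a mean for each group, which leaves 12 residual degrees of freedom. It used the default filter (minimum count of 10), TMM factors, the quasi-likelihood F test and Benjamini-Hochberg adjustment over 15074 genes, threshold 0.05. Standard errors are the fold change over the square root of F. Correlations used log2 CPM (prior count of 2) and 100000 permutations, two-sided. P-values measure the spread between tumours, each from 1 mouse. No library repeated another of its group (chi-square per degree of freedom at least 13.1). The test was tried on simulated counts first. Alternatives were DESeq2 1.42.0, voom with quality weights (limma 3.58.1), other scalings, no filter, fewer groups, the replicate number or mouse share as terms, and libraries left out. Intervals and limits for counts cover counting error only.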

Additional observations from a re-analysis of the deposited data

Results flagged for a closer look

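Of the 40 sets of 4 tumours (10 genes in 4 groups), 4 had 1 tumour with a gap to its nearest neighbour beyond Dixon's 95% limit for 4 values. The gap is taken as a share of the range of the group. Chance passes that limit in about 1 of 20 sets if the values are normally distributed. The limit was applied to CPM, not to log2 CPM, and CPM can be strongly skewed (Chil3 in the combination, 57.5 ± 99.0). The 4 of 40 are therefore not read as an excess over chance. In combination 2, Chil3 stood at 206 CPM with the next at 14.2 (gap 0.942 of the range), and Il1b at 71.9 CPM with the next at 113 (0.92). Chil3 in nab-paclitaxel 1 stood at 10.2 CPM with the next at 2.30 (0.842). Retnla in phenelzine 2 stood at 13.7 CPM with the next at 2.11 (0.845).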

How the results depend on the processing

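With 1 library left out at a time, 0 of the 10 genes were called in any of the 8 comparisons (edgeR), and the lowest adjusted p of the named values was 0.0517, for the average of nab-paclitaxel on Arg1 without combination 1. The count was also 0 with upper-quartile factors, voom, no filter, only the groups compared, leaving out the 4 libraries that stood apart and the mouse share as a covariate. With DESeq2 it was 2 for nab-paclitaxel against vehicle, 1 for the combination against vehicle, 3 against nab-paclitaxel and 1 against phenelzine. It was 1 for the interaction and 1 for the average of nab-paclitaxel, and the cause was not tested. These DESeq2 counts stand without the share of all genes called, so they do not show whether the 10 genes stood out. With the counts of both species as library size the count was 10 for the combination against phenelzine and 7 for the average of nab-paclitaxel. There 13456 and 13033 of all mouse genes passed, respectively. On that scale Il1b in the combination against vehicle turned to 0.59 on the log2 scale, where the median of all genes was 1.15. The 22 of 80 gene-by-comparison values with an unadjusted p under 0.05 gave 437 values under alternatives. Of these 422 kept direction and side of the threshold, 14 passed it anew and 1 turned. None of the 22 had passed the adjusted threshold in the main fit, so the 422 are values that again did not pass. Over all 80, 23 turned sign when some library was left out, and none of the 22 did. The 22 were chosen by p in these same data, so their stable sign follows largely from that choice and is no separate evidence. A block on the replicate number left 0 genes called in all 8 comparisons. Same-numbered tumours had correlated deviations (r over 0.1) in 11 of 24 pairs, from -0.172 to 0.306, and 6 of 16 libraries correlated best with their own number. The mean r was 0.069 for same-numbered pairs and -0.0233 for pairs with other numbers. The numbers were not taken to pair the tumours, but whether they do was not tested. The settings tried on the correlation of Nos2 and Arg1 were added after the data were seen, and it passed in each, with r = 0.917 without the 4 libraries that stood apart.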
